A study of Mus musculus with 6 samples.

Results

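Replication-dependent histone genes were taken as the protein-coding GENCODE M21 genes whose symbol begins with Hist1h, Hist2h, Hist3h or Hist4h, the prefixes of the 4 mouse histone gene clusters. The annotation holds 67 of them, and 64 have a row in the deposited table. Of these 64, 22 had no read in any library and 23 reached a mean of at least 1 normalized count over the 6 libraries. The 23 are compared between the groups here, out of 14288 genes tested. They comprise 5 of 6 H1 genes, 2 of 18 H2A genes, 8 of 18 H2B genes, 1 of 12 H3 genes and 7 of 13 H4 genes.

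RNA was measured in bulk in CD11b+ cells sorted from the spleen of 6 C57BL/6J Rag1 KO mice, which make no mature T or B cells, on day 8 after cell transfer. All 6 had been given 2D2 CD4+ T cells, which recognise the myelin protein MOG, and MOG-loaded B cells grown in the iGB culture, a system for expanding germinal centre-like B cells. In the WT iGB6 group (n = 3 mice) the B cells were WT and carried a retroviral pMSCV vector with Il6 and, after an IRES2, eGFP. In the IgHMOG iGBGFP group (n = 3 mice) the B cells were IgHMOG, from mice with a MOG-specific heavy chain, and carried the empty vector, so that B cell genotype and vector changed together. Replicate 1 was female and replicates 2 and 3 were male in both groups, and each library came from its own mouse. A difference in a sorted bulk population can come from other proportions of cells or from other RNA levels per cell, and the 2 cannot be told apart here.

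The libraries held 5196339 to 6611212 reads in IgHMOG iGBGFP mice and 5955142 to 7564254 in WT iGB6. A gene at 0 could have had up to 3 reads, which corresponds to 2.37 to 3.56 normalized counts and covers counting error only. The sort label was checked with 10 markers of CD11b+ cells, none of which was at 0. Itgam, which encodes CD11b itself, stood at 6451 to 10610 normalized counts in IgHMOG iGBGFP mice and 9561 to 12350 in WT iGB6, and none of the 10 passed the test between groups.

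Replication-dependent histones package newly copied DNA, and their genes are transcribed mainly in S phase under the coactivator NPAT. Their mRNAs are the known exception among metazoan mRNAs in that they usually end in a conserved stem-loop, bound by SLBP, instead of a poly(A) tail. Some of these genes are also known to give longer, polyadenylated transcripts, mainly in cells that have stopped dividing. Low-input cDNA kits of the type used here usually prime on poly(A) tails. The labels do not state the priming, so the counts below are levels of what the libraries captured and not of all histone mRNA.

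The stem-loop carries the alternative to polyadenylation and is therefore shown first, for some of the genes described below. A search for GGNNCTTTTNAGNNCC in the annotated exon sequence after the stop codon found the element in 43 of 67 genes, 21 to 58 bases after the stop codon (median 31). Most of the other 24 genes are annotated only to the stop codon or just past it, so no match was possible there. The stem of the element differed by class. All 32 matches in H1, H2A, H2B and H3 genes began with GGCTC, while the 11 in H4 genes began with GGCCC (9 genes) or GGTCC (2 genes). The sites below are from GENCODE M21 transcripts on GRCm38, 5′ to 3′ on the gene's strand, with the stem-loop in capitals. Each is named with its position.
Hist1h1c stem-loop, chr13:23739507-23739532, plus strand: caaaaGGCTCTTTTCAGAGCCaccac
Hist1h2be stem-loop, chr13:23585526-23585551, minus strand: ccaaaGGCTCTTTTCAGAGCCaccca
Hist1h4i stem-loop, chr13:22040961-22040986, minus strand: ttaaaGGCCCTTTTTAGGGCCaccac
Hist2h4 stem-loop, chr3:96262934-96262959, minus strand: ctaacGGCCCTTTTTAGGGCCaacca
Hist3h2a stem-loop, chr11:58955167-58955192, plus strand: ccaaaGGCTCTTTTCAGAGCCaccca

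In each of these 5 genes the annotated transcript runs on past the stem-loop, by 330 bases in Hist1h4i, 840 in Hist1h1c, 1257 in Hist2h4, 1643 in Hist3h2a and 1861 in Hist1h2be. Near its end stands one of the hexamers AATAAA or ATTAAA, which are used as poly(A) signals, searched in the last 50 bases of the transcript. The hexamer is in capitals below.
Hist1h1c end, chr13:23740330-23740359, plus strand: gtgtatgcttctAATAAAaagcgtttagtt
Hist1h2be end, chr13:23583672-23583701, minus strand: gttgtgttccttATTAAAgcattcctgatt
Hist1h4i end, chr13:22040639-22040668, minus strand: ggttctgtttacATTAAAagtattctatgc
Hist2h4 end, chr3:96261697-96261726, minus strand: tcgtatacataaAATAAAatcttaaaaaca
Hist3h2a end, chr11:58956785-58956814, plus strand: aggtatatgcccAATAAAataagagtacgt
A hexamer in this window describes the annotation and does not show that a transcript was cleaved there. Not all abundant histone genes have both elements. Of those with a mean of at least 10, 7 had the hexamer in this window and 5 did not. Hist1h1e and Hist1h4d have the stem-loop without the hexamer, and Hist2h2be has the hexamer without the stem-loop word.

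Hist1h2bc, the most abundant of the 23, differs from these 5 in its searched 3′ end. Its annotated transcript has 2 exons, as has that of Hist1h2be, whose exons of 209 and 2297 bases lie 34949 bases apart. In Hist1h2bc they are the first of 423 bases at chr13:23684199-23684621 and the second of 733 bases at chr13:23692176-23692908, with an intron of 7554 bases. The stem-loop word was not found in the exon sequence after its stop codon, nor a poly(A) hexamer in the last 50 bases of the transcript. Of the 742 exonic bases after the stop codon, the 733 of the second exon lie past the intron. In the genome, the positions 21 to 58 bases after the stop codon, where the other matches began, thus fall in the intron, which was not searched. At the other extreme, the annotated transcript of the H1 gene Hist1h1b ends at its stop codon, so its own 3′ end could not be searched.

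The promoters of the H1 genes Hist1h1c and Hist1h1b are shown because these 2 genes of one class differed in opposite directions between the groups (Hist1h1b without passing the test). RefSeq promoters on GRCm38.p6 were matched for 61 of 67 genes. In the 250 bases before the start, searched on both strands, the CCAAT box (CCAAT) was present in 50 of 61 histone genes, against 33.8% of 32851 promoters, and the TATA box (TATAAA) in 29, against 12.4%. The octamer ATTTGCAT was present in 14 of the 61, namely 7 H2A and 7 H2B genes, against 1.6% of all promoters. The H1 box AAACACA was present in 5 of 6 H1 genes and 4 others, against 6.25%. Matches of different words were counted separately where they overlap in position, and a match is a description of the sequence. The 150 bases upstream of the start follow, 5′ to 3′ on the gene's strand, with the matched words in capitals.
Hist1h1c promoter, chr13:23738657-23738806, plus strand: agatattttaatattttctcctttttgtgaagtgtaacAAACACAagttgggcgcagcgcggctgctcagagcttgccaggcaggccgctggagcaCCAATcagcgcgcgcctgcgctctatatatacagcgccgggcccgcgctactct
Hist1h1b promoter, chr13:21780626-21780775, minus strand: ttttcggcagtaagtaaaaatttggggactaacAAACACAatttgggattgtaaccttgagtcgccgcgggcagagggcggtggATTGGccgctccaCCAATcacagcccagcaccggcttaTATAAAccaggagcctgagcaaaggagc
Both carry the H1 box and a CCAAT box, and Hist1h1b also has TATAAA in this stretch. Only exact words were counted, so near matches such as tatata in the Hist1h1c stretch were left out.

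The level of a histone gene in these libraries differed with its annotated 3′ end. The 23 genes with a mean of at least 1 had a median of 421 annotated exonic bases after the stop codon, and the 41 below that mean had a median of 78. Of 17 genes with a poly(A) hexamer at the annotated end, 11 were among the 23, as were 12 of the 47 without one. The 47 include genes whose annotation ends at or just after the stop codon, such as Hist1h2ai and Hist1h3h. In those no hexamer could be found, whatever their true end. The mean of 1 was not scaled to length, so a longer annotated exon can bring in more reads. Hist1h1d, with 7425 exonic bases, had a mean of 4.02 but 0.54 per kb. Of 21 genes with at least 300 bases after the stop codon, 13 were among the 23, compared with 10 of 43 with a shorter annotated end. These genes are close copies of each other, and reads that fit several copies may have been lost or split. How such reads were treated is not stated in the sources used here. The share of a gene's 50-base words that also occur in another gene had a median of 28.9% in the 23 and 71.5% in the other 41, so annotated length, copy number and level move together, and their separate parts were not tested. At the threshold, Hist1h2ae (1.13 normalized counts), Hist1h3e (1.76) and Hist1h2bp (1.85) were just inside and Hist1h4n (0.900), Hist1h4j (0.870) and Hist1h2bf (0.816) just outside.

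**Figure D1:**
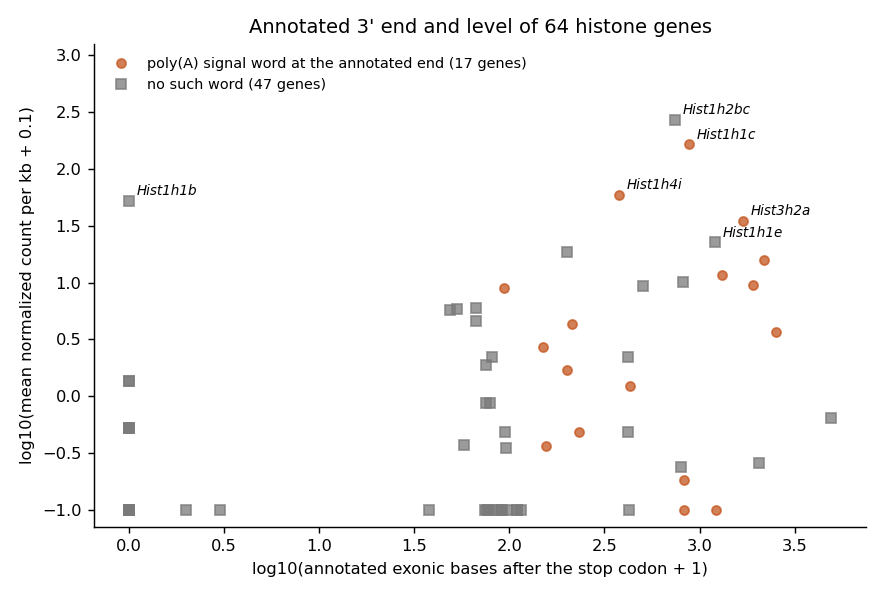
Annotated exonic bases after the stop codon (horizontal, log10 of bases + 1) and mean normalized count per kb over the 6 libraries (vertical, log10 of the value + 0.1) for 64 histone genes, with 17 genes that have a poly(A) hexamer at the annotated end as circles and 47 without as squares. Hist1h2bc and Hist1h1c are highest, and Hist1h1b stands apart among genes whose annotation ends at the stop codon.

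Per kb of annotated exon, Hist1h2bc had a mean of 270.3 normalized counts, Hist1h1c 166, Hist1h4i 59.3 and Hist1h1b 52.7. Hist3h2a had 35.1 and Hist1h1e 22.6, and the other 17 of the 23 were at 18.6 or less. The replication-independent variant H3f3b, whose mRNA is polyadenylated, had 2887 per kb and H2afz 2319. Several histone genes lie head to head, with starts less than 1000 bases apart, and 13 such pairs were annotated. Over all libraries Hist1h2bc had 2016 reads while Hist1h2ac, whose start lies 251 bases away on the other strand, had 2. In the pair Hist2h2be and Hist2h2ac the reads were 261 and 1. These are the 2 pairs with most reads. In 8 of the 13 pairs no gene had more than 5 reads, where an H2B gene without a row in the deposited table was counted as 0. In the other 5 pairs the H2B gene had more reads than its H2A partner.

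Between the groups, 2 of the 23 histone genes fell in WT iGB6 mice and none rose. They were Hist1h2bc and Hist1h1c, the 2 most abundant. Across all 14288 genes, limma called 5.09% changed in either direction, 2.88% lower and 2.2% higher, at a Benjamini-Hochberg adjusted p under 0.05. At an unadjusted p under 0.05, 7 histone genes were lower and 1 was higher. On the recovered reads, edgeR and DESeq2 each also called 2 histone genes lower and none higher. The log2 fold change, WT iGB6 over IgHMOG iGBGFP, on the log2(normalized count + 1) scale that understates changes of low genes, was below 0 for 15 of the 23 and for 52.5% of all genes. Its median was -0.15 for the 23 and -0.04 for all genes tested. Among the 12 histone genes with a mean of at least 10, 9 were below 0 with a median of -0.53, against 48.4% and a median of 0.02 for all 9923 genes at that level. The groups did not overlap for 6 of the 23, each time with WT iGB6 lower, while 11.1% of all genes had non-overlapping groups in that direction and 9.84% in the other.

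**Figure D2:**
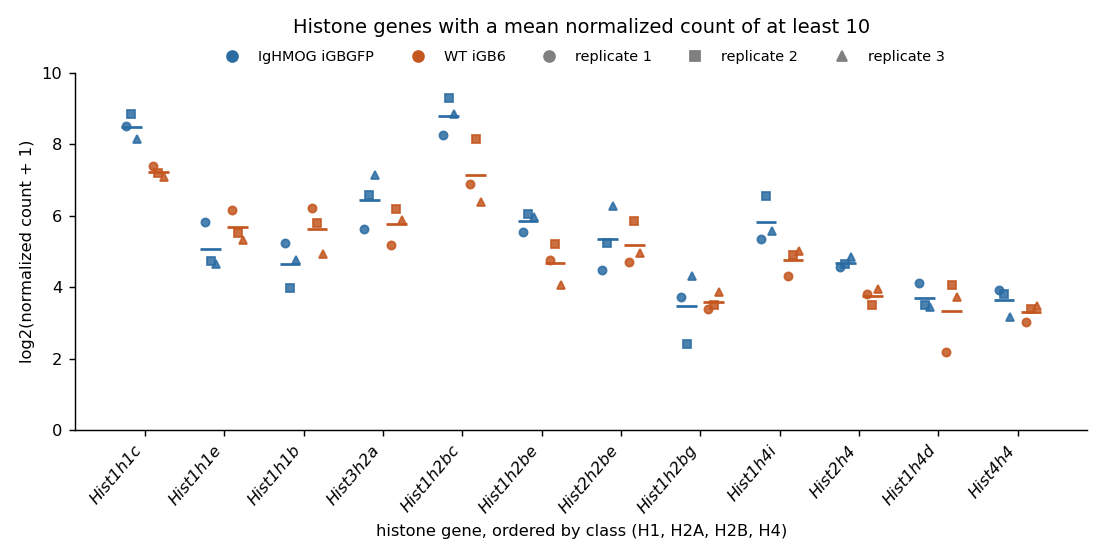
Log2(normalized count + 1) in each library for the 12 histone genes with a mean of at least 10, ordered by class, with marker shape giving the replicate number and bars the group means (n = 3 per group). Hist1h1c, Hist1h2bc, Hist1h2be, Hist1h4i and Hist2h4 have all 3 WT iGB6 libraries below all 3 IgHMOG iGBGFP libraries.

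**Figure D3:**
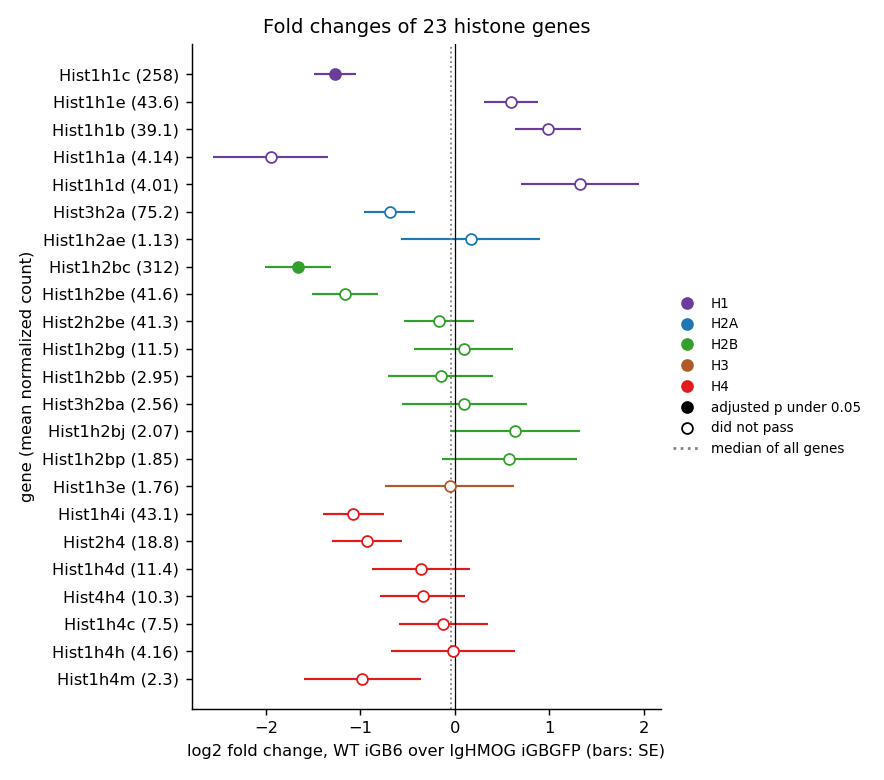
Log2 fold change (WT iGB6 over IgHMOG iGBGFP) with its limma standard error for the 23 histone genes, grouped by class, with the mean normalized count in brackets and filled points for an adjusted p under 0.05. The 2 filled points are Hist1h1c and Hist1h2bc, all 7 H4 genes lie below 0, and the dotted line marks the median of all genes at -0.04.

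The H1 genes, which encode the linker histones that bind DNA between nucleosomes, included 1 called gene among 5, with log2 fold changes below 0 for 2 and above 0 for 3. Hist1h1c, which encodes H1.2, stood at 362, 460 and 281 normalized counts in IgHMOG iGBGFP replicates 1, 2 and 3. In WT iGB6 it stood at 167, 147 and 134. Every WT iGB6 library was thus below every IgHMOG iGBGFP library, with group values of 368 ± 89.5 and 149 ± 16.8 (SD, n = 3). The log2 fold change was -1.27 (SE 0.22, limma adjusted p = 0.00848). In the authors' deposited table it was -1.19 with an adjusted p of 8.87e-05.

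Hist1h1b, which encodes H1.5, had the opposite sign. Its normalized counts were 36.8, 14.7 and 26.0 in IgHMOG iGBGFP mice and 73.5, 54.5 and 29.2 in WT iGB6. Within each replicate number the WT iGB6 library was higher, but WT iGB6 replicate 3 was below IgHMOG iGBGFP replicate 1, so the groups overlapped. The log2 fold change was 0.99 (SE 0.35) and did not pass (limma adjusted p = 0.124). Hist1h1e, which encodes H1.4, had 56.3, 25.9 and 24.0 in IgHMOG iGBGFP mice and 71.1, 45.0 and 39.4 in WT iGB6 (0.60, SE 0.29, limma adjusted p = 0.258). Here too the groups overlapped, through the high IgHMOG iGBGFP replicate 1. Of the exonic bases of Hist1h1e, 25.7% are shared with Hist1h2be and a predicted gene on the same strand, so its counts are uncertain.

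The remaining H1 genes were low. Hist1h1a, which encodes H1.1, had 6, 9 and 7 reads in IgHMOG iGBGFP mice and 2, 2 and 0 in WT iGB6, with a log2 fold change of -1.95 (SE 0.61, limma adjusted p = 0.0862). Hist1h1d, which encodes H1.3, had 1, 1 and 4 reads against 7, 4 and 6 (1.33, SE 0.63, limma adjusted p = 0.251). Neither passed, and both rest on fewer than 10 reads per library.

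The make-up of the H1 signal also differed. Per kb and as a share of the 6 H1 genes, Hist1h1c made up 72.7, 87.1 and 75.5% in IgHMOG iGBGFP mice and 43.3, 48.7 and 58.1% in WT iGB6. Hist1h1b made up 15.5, 5.83 and 14.7% in IgHMOG iGBGFP mice and 40.0, 37.9 and 26.7% in WT iGB6. The groups did not overlap in either share, which rests in part on the called difference of Hist1h1c and is given without a test. The sizes of the shares also depend on the annotated exon lengths, 743 bases for Hist1h1b, 1560 for Hist1h1c and 7425 for Hist1h1d.

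**Figure D4:**
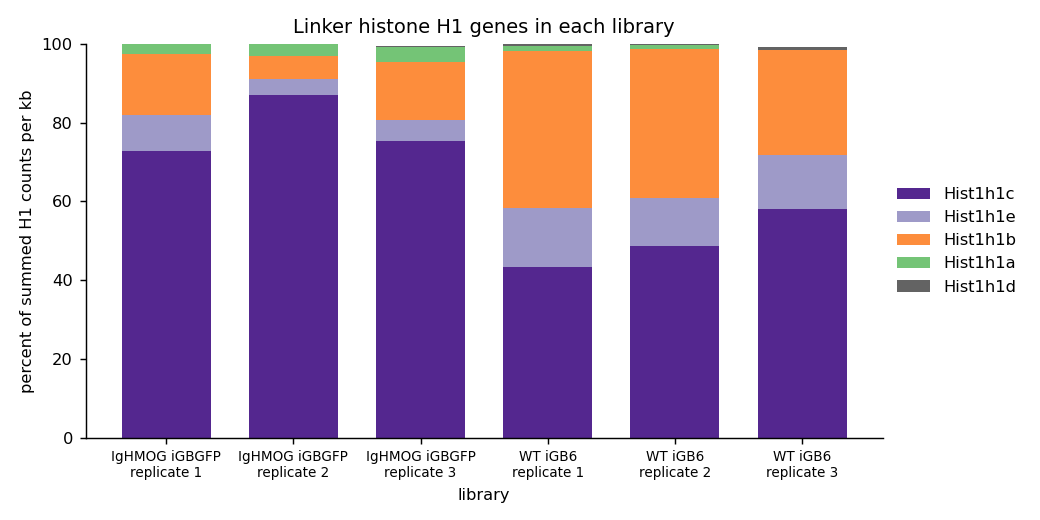
Share of each H1 gene in the summed H1 normalized counts per kb (vertical, percent) in each of the 6 libraries; Hist1h1t, with a mean under 1, is in the total but not drawn. Hist1h1c takes 72.7 to 87.1% in IgHMOG iGBGFP mice and 43.3 to 58.1% in WT iGB6. The sizes of the shares depend on the annotated exon lengths.

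Among the core histones, which form the nucleosome itself, the H2B gene Hist1h2bc changed. It had 305, 626 and 462 normalized counts in IgHMOG iGBGFP replicates 1, 2 and 3. In WT iGB6 it had 117, 283 and 82.1. All 3 WT iGB6 libraries were below the lowest IgHMOG iGBGFP library, although replicate 2 was the highest in each group. The groups stood at 464 ± 161 and 161 ± 107 (SD, n = 3), with a log2 fold change of -1.66 (SE 0.35, limma adjusted p = 0.0198). The authors' deposited table gives -1.30 with an adjusted p of 8.50e-04. Of its 50-base words, 30.6% occur in another gene.

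Both calls depended on the sex term, which also takes up whatever else the replicates numbered 1 shared, and on single libraries. Without the sex term the limma adjusted p was 0.107 for Hist1h2bc and 0.0603 for Hist1h1c, while over all genes only 16 of 14288 were then called. In males alone both missed the threshold (0.116 and 0.0845). Both also missed it without IgHMOG iGBGFP replicate 1 (0.117 and 0.0839), IgHMOG iGBGFP replicate 2 (0.228 and 0.104) or WT iGB6 replicate 1 (0.118 and 0.0847), and Hist1h2bc without IgHMOG iGBGFP replicate 3 (0.112). Few genes of any kind were called in these fits. Over all genes the count was 24 in males alone, and 24 and 25 without IgHMOG iGBGFP or WT iGB6 replicate 1. It was 19 and 49 without IgHMOG iGBGFP replicates 2 and 3. Males alone and the fits without a replicate 1 gave the same estimates (-1.81 and -1.35). The fold changes of both genes stayed below 0 in all 19 alternatives. They ran from -2.13 to -1.12 for Hist1h2bc and from -1.45 to -1.05 for Hist1h1c.

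Hist1h2be, another H2B gene, had 46.0, 64.7 and 61.0 normalized counts in IgHMOG iGBGFP mice and 26.1, 36.3 and 15.7 in WT iGB6. The groups did not overlap, but the gene did not pass (-1.17, SE 0.35, limma adjusted p = 0.0716). It passed with the replicate number as a block (adjusted p = 0.0435), with no filter on low genes (0.0398) and without WT iGB6 replicate 2 (0.0208). Of its exonic bases, 11.2% are shared with Hist1h1e and a predicted gene on the same strand. Hist2h2be had 21.5, 37.1 and 77.0 in IgHMOG iGBGFP mice and 24.9, 56.8 and 30.4 in WT iGB6, which overlapped widely (-0.17, SE 0.37, limma adjusted p = 0.844). Hist1h2bg had 12.3, 4.31 and 19.0 against 9.49, 10.3 and 13.5 (0.09, SE 0.53, limma adjusted p = 0.946). The other 4 of the 8 H2B genes were below a mean of 3, with log2 fold changes from -0.15 to 0.63 that did not pass.

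The 7 H4 genes all had log2 fold changes below 0, from -1.07 to -0.02 with a median of -0.36, and none passed. Hist1h4i, the highest of them, had 39.9, 92.3 and 47.0 normalized counts in IgHMOG iGBGFP mice and 19.0, 29.2 and 31.5 in WT iGB6. The groups did not overlap (-1.07, SE 0.32, limma adjusted p = 0.0743), and IgHMOG iGBGFP replicate 2 was well above the rest. With library weights, which give less weight to libraries far from their fit, its adjusted p was 0.0295.

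Hist2h4 had 22.5, 24.1 and 28.0 in IgHMOG iGBGFP mice and 13, 10.3 and 14.6 in WT iGB6, again without overlap (-0.93, SE 0.37, limma adjusted p = 0.170). Hist1h4d had 16.4, 10.3 and 9.996 against 3.56, 15.8 and 12.4, where only WT iGB6 replicate 1 was low (-0.36, SE 0.52, limma adjusted p = 0.751). The summed H4 level was 104, 168 and 110.0 normalized counts in IgHMOG iGBGFP mice and 54.5, 80.5 and 82.1 in WT iGB6, so all WT iGB6 libraries were lower. H4 genes encode the same protein from many copies, and Hist1h4i shares 28.9% of its 50-base words with other genes.

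H2A and H3 were represented by few genes. Hist3h2a, the H2A gene with most reads, had 48.1, 95.7 and 141 normalized counts in IgHMOG iGBGFP mice and 35.6, 72.6 and 58.5 in WT iGB6. The groups overlapped, with each WT iGB6 library below the same-numbered IgHMOG iGBGFP library (-0.69, SE 0.27, limma adjusted p = 0.159), and 33% of its exonic bases overlap other annotated genes. Hist1h2ae had 1, 0 and 1 reads against 4, 0 and 0, and Hist1h3e 2, 2 and 1 against 3, 0 and 2, too few to show a difference at this depth. No H3 gene reached a mean of 2, and 8 of 12 had no read.

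Summed over all 64 genes, histone normalized counts were 1013, 1523 and 1227 in IgHMOG iGBGFP mice and 615, 808 and 504 in WT iGB6. Every WT iGB6 library was below every IgHMOG iGBGFP library, with group values of 1254 ± 256 and 642 ± 154 (SD, n = 3). Hist1h2bc and Hist1h1c held 36.3% and 29.6% of the sum in IgHMOG iGBGFP (means over 3 libraries), and 23.4% and 24.0% in WT iGB6. Without them the sums were 346, 437 and 484 against 331, 378 and 288, and the groups overlapped. The difference in the total lay mainly in these 2 genes.

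Genes of the S phase program were mostly higher in WT iGB6 mice. Of 36 S phase genes tested, 21 rose in WT iGB6 mice, 15 did not pass and none fell, beside 2.2% of all genes called higher. Their median log2 fold change was 1.00, beside the median of -0.04 over all genes. Rrm2, a subunit of ribonucleotide reductase, had 816, 534 and 617 normalized counts in IgHMOG iGBGFP mice and 2453, 1852 and 1316 in WT iGB6 (1.49, SE 0.19, limma adjusted p = 0.00153). Ccne2, the cyclin E2 gene, rose by 1.57 (SE 0.20, limma adjusted p = 0.00184) and Tyms, which encodes thymidylate synthase, by 1.36 (SE 0.21, limma adjusted p = 0.00566). Mki67, a marker of cycling cells, rose by 0.91 (SE 0.20, limma adjusted p = 0.0225). The difference between the lists was not tested.

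Of 29 histone chaperone and deposition genes, 4 rose, 25 did not pass and none fell, beside 2.2% of all genes called higher. Their median was 0.06. Asf1b, which hands H3 and H4 to the replication machinery, had 428, 364 and 406 normalized counts in IgHMOG iGBGFP mice and 1585, 981 and 745 in WT iGB6, without overlap (1.40, SE 0.20, limma adjusted p = 0.00410). The other 3 were Dnajc9, a co-chaperone of H3 and H4 (0.96, SE 0.20), Chaf1b, a subunit of the chromatin assembly factor CAF-1 (0.84, SE 0.22), and Ssrp1, a subunit of the FACT complex (0.67, SE 0.17). Hjurp, the most abundant of the list and the chaperone of the centromeric H3 variant, had 0.62 (SE 0.18, limma adjusted p = 0.0727).

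None of the 24 histone mRNA processing and transcription genes passed, and their median was 0.22. Slbp, which encodes the stem-loop binding protein, had 1085, 1157 and 1006 normalized counts in IgHMOG iGBGFP mice and 1766, 1418 and 1479 in WT iGB6, without overlap (0.52, SE 0.17, limma adjusted p = 0.104). Cstf2, a cleavage stimulation factor subunit, had 0.82 (SE 0.24, limma adjusted p = 0.0702), and Lsm10, a protein of the U7 particle that cuts histone pre-mRNA, had -0.47 (SE 0.20, limma adjusted p = 0.204). Of 16 replication-independent variants, 11 were tested and none passed, with a median of 0.19. Cenpa, the centromeric H3 variant, had 0.62 (SE 0.18, limma adjusted p = 0.0635), H2afz, the gene of H2A.Z, 0.55 (SE 0.18, limma adjusted p = 0.107) and H1f0, a linker histone of cells that have stopped dividing, -0.62 (SE 0.39, limma adjusted p = 0.411). H3f3b, the most abundant variant, had -0.11 (SE 0.19, limma adjusted p = 0.808).

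**Figure D5:**
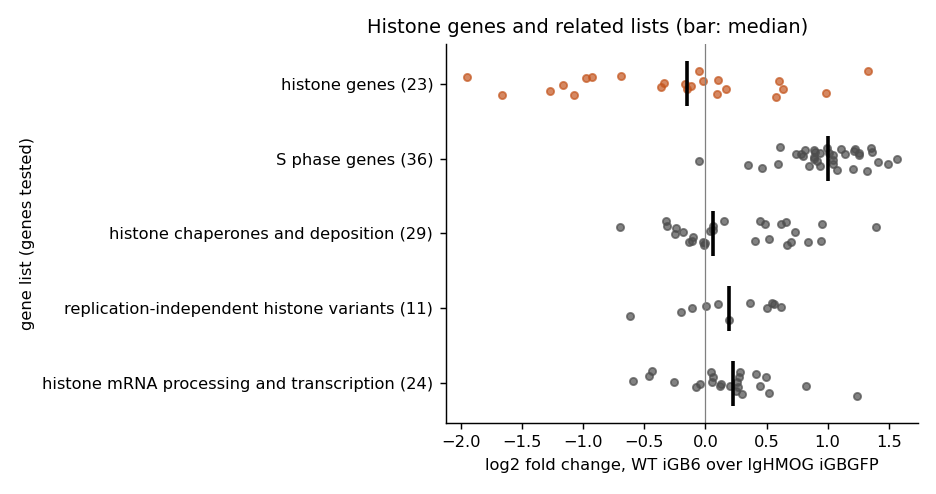
Log2 fold change (WT iGB6 over IgHMOG iGBGFP) for the 23 histone genes and for the tested genes of 4 related lists, with one point per gene and a bar at the list's median; vertical scatter within a row has no meaning. The S phase list lies almost wholly above 0 with a median of 1.00, and the histone genes spread on both sides of 0 with a median of -0.15.

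Marker genes of other cell types were read in the same libraries, where 2.2% of all genes were called higher and 2.88% lower. Of 12 neutrophil precursor genes, 9 rose and none fell (median 1.62), and their summed level was 22210 to 27110 normalized counts in IgHMOG iGBGFP mice and 44010 to 55260 in WT iGB6. Fcnb rose by 1.88 (SE 0.19, limma adjusted p = 0.000357), Ms4a3 by 2.21 (SE 0.25, limma adjusted p = 0.00102) and Mpo by 3.39 (SE 0.40, limma adjusted p = 0.00106). None of 17 erythroid precursor genes passed (median 0.85, sums of 1022 to 4770 against 2928 to 5174). None of 11 T cell genes passed (median -0.49, sums of 187 to 256 against 108 to 272), with Cd3e at 1, 2 and 4 reads in IgHMOG iGBGFP mice and 0 in each WT iGB6 library. Of 12 B and plasma cell genes, 1 fell (Irf4, -2.55, SE 0.47; sums of 302 to 595 against 244 to 314). Of 11 progenitor and megakaryocyte genes, 3 rose, among them Myb (1.16, SE 0.30), and 3 fell, among them Gata2 (-2.87, SE 0.42; sums of 347 to 437 against 409 to 564). No gene of these 5 lists was at 0 in all libraries.

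Of the 10 CD11b-defining genes, 7 had log2 fold changes above 0 and 3 below, with a median of 0.42. The lowest p among them was that of Csf3r, the receptor gene of the granulocyte growth factor G-CSF, which had 9890, 14370 and 14740 normalized counts in IgHMOG iGBGFP mice and 5662, 10100 and 3574 in WT iGB6 (-1.12, SE 0.31, limma adjusted p = 0.0560). The part of these marker differences in the histone results was not tested.

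A model with an interaction of sex and group called no histone gene and none of the 14288 genes (limma adjusted p), with 2 and 347 at an unadjusted p under 0.05. The 2 were Hist1h4d and Hist1h4h. With 1 female per group this has little power. For Hist1h1c the effect was -1.11 in the females, and for Hist1h2bc it was -1.37.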

How the data were processed

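Groups, replicate numbers and sex came from the labels. Per the labels' protocols, low-input cDNA was made from 8 to 16 ng of RNA (17 cycles, then 9 for the library), with no molecular identifiers described. The submitters' processing notes list the builds GRCm38 and mm10 and the tools STAR 2.7.10b, DESeq2 2.11.40.7, cutadapt 4.4, featureCounts 2.0.3 and FastQC 0.74. How strand and multi-mapping reads were handled, and with which annotation, is not stated in the sources used here. Signal values as deposited are counts that the authors divided by 1 size factor per library, per the file headers and values: 100% became whole reads within 0.001 after division by each library's step. The authors' deposited comparison holds log2 fold changes, their errors, a score, p-values and adjusted p-values, with its column order read from the values. Its errors for low genes were below those of DESeq2 on recovered reads (Hist1h2ae 0.28 against 2.4, Hist1h3e 0.35 against 1.74). Its fold changes may therefore be on another scale than the limma and DESeq2 values beside them, which was not tested.

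Symbols and coordinates came from GENCODE M21 (42462 of 43432 IDs matched, 970 did not). The test was limma 3.58.1 in R 4.3.3 on log2(normalized count + 1) with group and sex, variance trend, two-sided, for genes with a mean of at least 1, adjusted over all 14288 by Benjamini-Hochberg with a threshold of 0.05, and tested on simulated data. Because the values are normalized, edgeR 4.0.16 and DESeq2 1.42.0 on recovered reads were alternatives, as were other covariates, pseudocounts of 0.5 and 5, filters, CPM, library weights and leaving out libraries. Sequences came from GENCODE M21 transcripts and RefSeq promoters (GRCm38.p6), read with Python 3.11.15. Named histone genes were those called and the 3 highest per kb in each class, with those at the threshold of a mean of 1. The rule also took Mki67, from each related list the 3 genes with the smallest p and the most abundant, and from marker lists the 2 most abundant, of which some are only summarised. Other genes named (Hist1h2be, Hist1h1a, Hist1h1d, Hist1h4h, Hist1h2ac, Hist2h2ac, Ssrp1, Cd3e, Itgam) were chosen after their values were seen. Members, lists and tests were chosen with earlier results of these data known, and counting limits cover counting error only.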

Additional observations from a re-analysis of the deposited data

How the results depend on the processing

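The number of genes called moved from 727 to 16 with no sex term, 24 in males only, 1098 with the replicate block in place of sex, 1219 with library weights and 1389 with edgeR and the replicate block, a fit chosen after seeing the data. Leaving out 1 library gave 19 to 1051. Histone genes called lower numbered 0 with no sex term, 0 in males only, 4 with edgeR and the replicate block (Hist1h2bc, Hist1h1c, Hist1h2be and Hist1h4i), and 0 to 3 when 1 library was left out. With the replicate block in limma they numbered 3, with Hist1h2be added. Library weights called 1 histone gene higher, Hist1h1b (adjusted p = 0.0321). Leaving out 1 library gave no histone gene called higher. The median log2 fold change of the histone genes, -0.15, was -0.53 at a mean of at least 10, where fewer genes enter, -0.36 in males only, and -0.37 to -0.17 when 1 library was left out. edgeR and DESeq2 without the block each called 2 histone genes, as did the authors' deposited table.

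The replicate numbers were checked as pairs. Deviations from the group means correlated at 0.48, 0.35 and 0.04 for replicates 1, 2 and 3. Of 6 libraries, 4 correlated best with their own number. Same-numbered libraries also share sex, so whether the numbers mark pairs was not settled. The main fit did not take them as pairs, and the fits with the replicate block are given above.

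Signs were followed gene by gene across the alternatives only for the called histone genes and those highest per kb in each class. Among these, signs changed for 5 genes that never passed. Sign changes of the other histone genes were not counted. Hist1h3e was 0.042 with a pseudocount of 5, 0.080 with edgeR, 0.062 with DESeq2, 0.041 in the authors' deposited table, 0.021 with edgeR and the replicate block, and -0.45 to 0.52 when 1 library was left out. Hist1h2bg was -0.12 with CPM scaling, -0.082 with edgeR, -0.096 with DESeq2, -0.053 in the authors' deposited table, and -0.51 to 0.58 when 1 library was left out. Hist2h2be was 0.051 with library weights and -0.41 to 0.18 when 1 library was left out. Hist1h4d was 0.42 in males only and -0.68 to 0.42 when 1 library was left out. Hist1h2ae was -0.50 in males only, -0.011 with DESeq2, and -0.50 to 0.65 when 1 library was left out. Without either library numbered 1 the group estimate is that of the males, since the sex term then takes up the other. The cause of the other changes was not tested. CPM scaling moved the median of all genes from -0.04 to -0.17 and the share of calls that were higher from 43.3% to 17.4%; 16 histone genes were then below 0. Of the 23 histone genes, 11 averaged fewer than 10 reads per library, which limits what could be detected.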
